A study of Mus musculus with 105 samples.

Results

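In mouse metaphase II (MII) oocytes that lack Btg4, 96 genes changed in ribosome footprint level relative to mRNA level, 63 upward and 33 downward. Of the 96, 22 passed in each of 9 alternative fits that kept all libraries. In the fit that paired replicate numbers as blocks they passed narrowly, at limma adjusted p of 0.0479 to 0.0494. Both levels are relative to a library's total, so ribosomes per mRNA molecule were not measured. These 10 libraries, of 105 samples in the series, compare Btg4 knockout (KO) with Btg4 heterozygous (Het) oocytes in both ribosome footprints (3 libraries of each genotype) and polyadenylated mRNA (2 of each). The members are all genes with a mean of 1 FPKM or more in each assay, which holds for 7382 of the 20756 genes measured. FPKM is a read density scaled to gene length and to the mapped reads of the library. Translational efficiency is the footprint level over the mRNA level of a gene, and the test of its change asks whether the genotypes differ more in one assay than in the other (their interaction). Per the labels, oocytes came from C57BL/6 females of 8 or 5 weeks that were given 5 IU of PMSG and 5 IU of hCG to bring on ovulation. The only control genotype for footprints and mRNA was Het, which carries 1 mutant allele, and the sources used here do not give the extent of the deletion. The labels name no separate animals. A p-value here therefore sets a difference against the scatter of these libraries, and that scatter may be technical.

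Maturing oocytes do not transcribe, so protein synthesis draws on mRNAs stored during growth. BTG4 is an adaptor that brings the CCR4-NOT deadenylase to mRNA, whose poly(A) tail is then shortened and the message destroyed. Its own message is stored in the growing oocyte and translated during maturation. In oocytes a long tail is known to favour translation, so a stored message can be abundant and silent at the same time.

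The 2 assays differed in precision. Pearson correlation on the log2 scale between libraries of 1 genotype was 0.958 and 0.967 for mRNA but 0.708 to 0.828 for footprints. Between libraries of different genotype it was 0.804 to 0.878 for mRNA and 0.590 to 0.785 for footprints. The footprint ranges within and between genotypes therefore overlapped, and those of mRNA did not. The median residual SD of a gene was 0.32 for mRNA and 0.88 for footprints on the log2(FPKM + 1) scale. Of the 7382 genes, 674 to 2127 were listed at 0 in a footprint library and 3 to 10 in an mRNA library. From the size of single-read steps in low values, footprint depth relative to Het library 3 was 2.57 in Het library 1, 1.31 in Het library 2, and 1.42, 2.01 and 2.09 in KO libraries 1 to 3. Absolute depth is unknown. Markers of the oocyte summed to 4819 to 12239 FPKM per library. The sum of the 19 follicle cell markers was at 358 to 442 FPKM in Het mRNA and 268 to 310 FPKM in KO mRNA. In footprints this sum was at 241 to 421 FPKM in Het and 484 to 564 FPKM in KO. Most of it was 1 gene, Serpine2, at 342 and 427 FPKM in Het mRNA and 257 and 299 FPKM in KO mRNA. The sums did not overlap between genotypes, as held for 61.1% of all tested genes in mRNA and 27% in footprints. Of the 19, 9 were at 0 throughout Het mRNA, 10 throughout KO mRNA, 11 throughout Het footprints and 13 throughout KO footprints. Amh, Amhr2, Foxl2, Krt18 and Hsd17b1 were at 0 in every library, but Fshr, Inhba and Has2 were above 0 in some mRNA libraries of each genotype. Serpine2 footprints were above 0 in all 20 single MII oocytes of the series, with a mean of 120 FPKM, against 4.31 FPKM in full-grown oocytes. Those of Cyp19a1, also of this list, were above 0 in 17 of the 20, with a mean of 13.1 FPKM, against 1.63 FPKM. Any part of follicle cells in the results was not tested. The 4 haemoglobin genes were at 0 throughout, and blood markers summed to 21.2 FPKM at most. Values are relative to each library's total, so less RNA per oocyte and fewer oocytes cannot be told apart.

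Btg4 itself checks the labels. Its mRNA was at 3293 and 4774 FPKM in Het and 1754 and 2345 FPKM in KO. Its footprints were at 7009, 6346 and 6134 FPKM in Het and 1148, 971 and 907 FPKM in KO. The genotypes did not overlap in either assay, as held for 61.1% of all tested genes in mRNA and 27% in footprints. The mRNA difference did not pass (limma, adjusted p = 0.0989), and the footprint difference did (limma, adjusted p = 0.00609). Efficiency was lower by a log2 difference of -1.72 (SE 0.37), which missed the threshold (limma, adjusted p = 0.0672) and passed it once replicate numbers were paired as blocks (adjusted p = 0.0494).

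Efficiency was higher in KO for 63 genes (0.853% of those tested) and lower for 33 (0.447%), together 1.3%, by limma with a Benjamini-Hochberg adjusted p below 0.05. With replicate blocks the counts were 27 and 22, of which 22 and 12 were among the 63 and 33. Those 22 and 12 lay just under the threshold, at limma adjusted p of 0.0479 to 0.0494. At an unadjusted p under 0.05 there were 626 and 408. The median change of all 7382 genes was 0.24 in efficiency, 0.07 in mRNA and 0.26 in footprints, on the log2 scale. Single libraries moved these medians: efficiency was at 0.14, 0.12, 0.38 and 0.12 without Het mRNA 1, KO mRNA 2, Het footprints 1 and Het footprints 3, and footprints at 0.42 and 0.17 without the latter pair. The mRNA median was at 0.21, -0.01, -0.04 and 0.18 without Het 1, Het 2, KO 1 and KO 2, so its sign rests on single libraries. The call rests on all 4 mRNA libraries: without any 1 of them limma called 0 genes, with 357 to 474 higher and 240 to 301 lower at an unadjusted p under 0.05. Such a fit leaves 1 mRNA library in an arm, and that library takes the spread fitted over both assays, which is wider in footprints. The 96 were chosen on these same libraries, so what they keep with 1 library left out, direction included, is a description and no separate support. Without a footprint library the counts were 156 and 47 (Het 1), 64 and 44 (Het 2), 70 and 47 (Het 3), 34 and 33 (KO 1), 28 and 21 (KO 2) and 28 and 18 (KO 3). Of the 63 and 33, 22 and 11 passed in each of these 6 fits. The direction held for 95 of the 96 without each of the 10 libraries, and the other one, Csrnp2, missed the filter on low values without Het footprint library 3 and lost its call with the replicate block (adjusted p = 0.0625).

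Changes in mRNA and in footprints were weakly related. In mRNA 1366 genes rose (18.5%) and 50 fell (0.677%), and in footprints 302 rose (4.09%) and 34 fell (0.461%, limma, adjusted p below 0.05). Of the 1366, 106 also rose in footprints (1.44% of all tested genes), 7 fell, 456 had a lower footprint mean in KO and 910 did not. Of the 302, 196 did not pass in mRNA. Across the 7382 genes the change in mRNA and the change in footprints had a Spearman rho of 0.19. These are genes from separate libraries, not independent replicates, so no p is given. The median footprint change was -0.43 for the 170 genes with an mRNA change below -1 on the log2 scale and 0.07 for the 3300 between -1 and 0. Genes whose mRNA changed by 0 to 1 on the log2 scale had a median footprint change of 0.50. The median was 0.55 where mRNA rose by 1 to 2, 0.84 where it rose by 2 to 3, and 1.71 for the 154 genes above 3, whose median mRNA change was 3.53. Single libraries moved these counts. Without Het 1, Het 2, KO 1 or KO 2 of the mRNA libraries 30, 274, 96 and 20 genes fell in mRNA. Footprints rose for 189 genes without Het 2, 113 without Het 3 and 19 without KO 1, and fell for 17, 13, 6 and 8 without Het 1, Het 2, Het 3 and KO 1. Without KO footprint library 2 or 3 limma called 0 genes in either direction (at an unadjusted p under 0.05, 914 higher and 353 lower without library 2, and 894 and 238 without library 3). The balance of rises and falls depends on scaling and on the block. The mRNA counts were 907 and 684 with median scaling, 986 and 617 with quantile normalization, and 2450 and 1551 with the replicate block. The footprint counts were 141 and 37 with median scaling and 195 and 42 with quantile normalization. These scalings moved the median of all genes to -0.30 and -0.26 in mRNA and to -0.16 and -0.17 in footprints, but efficiency kept its balance, with 55 and 29 genes under median scaling and 74 and 43 under quantile normalization.

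**Figure D1:**
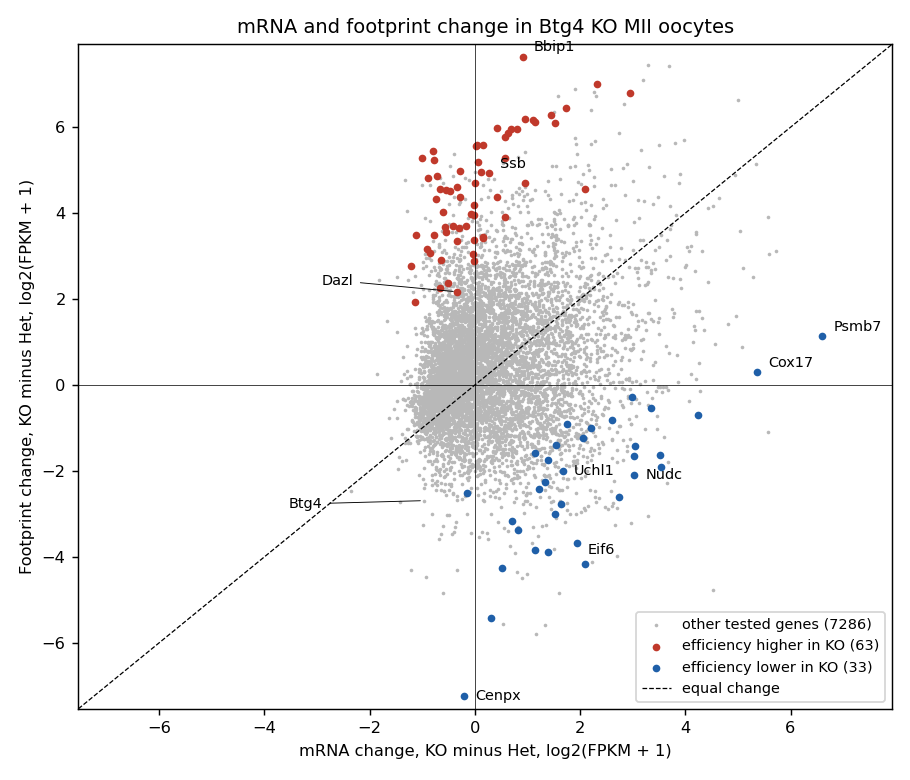
Change in mRNA (x) and in footprints (y) between KO and Het for 7382 genes, each on the log2(FPKM + 1) scale, with the dashed line where both are equal. Of the 63 genes of higher efficiency (red) 51 lie within 1 log2 of an mRNA change of 0, and 31 of the 33 of lower efficiency (blue) lie below a footprint change of 0.

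The genes of higher efficiency gained footprints, and most of them did not pass in mRNA. All 63 passed in footprints upward, against 4.09% of all tested genes, but the footprint values also enter the efficiency test, so this count is a description. Of the 63, 6 rose in mRNA, against 18.5% of all tested genes, and 51 had an mRNA change within 1 log2 in either direction, as had 75.3% of all tested genes. The median change was -0.02 in mRNA and 4.56 in footprints. The median mean level of footprints was 0.909 FPKM in Het and 80.0 FPKM in KO. In 22 of the 63 all 3 Het footprint libraries were listed at 0, and 32 had a Het mean below 1 FPKM, so these entered the tested set through their KO libraries. In the other 41 the median footprint level was 5.59 FPKM in Het and 115 FPKM in KO, with a median change of 3.95 in footprints and -0.33 in mRNA. For genes at 0 in Het the fitted difference depends on the pseudocount, and no fold is given.

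Among the 10 genes with the largest fitted gains, Fndc3a and Ccnl1 had footprints in every Het library. Fndc3a, a fibronectin type III domain gene, had mRNA at 42.1 and 26.7 FPKM in Het and 58.3 and 35.2 FPKM in KO, and footprints at 3.71, 4.38 and 3.82 FPKM in Het but 227, 439 and 300.5 FPKM in KO. Its mRNA groups overlapped and its footprint groups lay far apart, with an efficiency change of 5.55 (SE 0.60, limma adjusted p = 0.0144). Ccnl1, a cyclin that works in pre-mRNA splicing, had less mRNA in KO (79.7 and 65.4 against 43.5 and 33.7 FPKM) and more footprints (8.29, 5.43 and 2.32 against 128, 242 and 144 FPKM). Its efficiency change was 5.72 (SE 0.71, limma adjusted p = 0.0144).

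Atp6v1a, Satb1 and Timeless went the same way. Atp6v1a, the catalytic subunit of the proton pump that acidifies vesicles, had mRNA at 48.4 and 32.1 FPKM in Het and 23.7 and 15.3 FPKM in KO. Its footprints were at 0.764, 0 and 1.96 FPKM in Het and 64.4, 71.4 and 64.8 FPKM in KO (efficiency change 6.30, SE 0.75, limma adjusted p = 0.0144). Satb1, a chromatin organizer, had footprints of 8.17, 2.44 and 0 FPKM in Het and 128, 174 and 113 FPKM in KO. For Timeless, which protects replication forks, they were 2.60, 0 and 0 against 36.4, 66.7 and 34.3 FPKM. Both lost their call with the replicate block (limma adjusted p = 0.0603 and 0.0615) and without any 1 KO footprint library, and Satb1 also without Het footprint library 2.

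Eif3e, a subunit of the translation initiation factor eIF3, had nearly level mRNA, at 105 and 120.1 FPKM in Het and 105 and 126 FPKM in KO. Its footprints were at 4.44, 0 and 0 FPKM in Het and 117, 55.5 and 86.8 FPKM in KO (efficiency change 5.54, SE 1.03, limma adjusted p = 0.0431). It kept its call without Het footprint library 1 but not without any other footprint library. The other 4 genes were listed at 0 in all 3 Het footprint libraries. In KO, Bbip1, a subunit of the ciliary BBSome, had 73.8, 418 and 251 FPKM, and Srp19, part of the signal recognition particle, had 39.5, 48.9 and 53.7 FPKM. Nrbf2, of the autophagy lipid kinase complex, had 58.8, 26.9 and 65.8 FPKM, and Kin, a nucleic acid-binding protein gene, 43.5, 78.1 and 68.6 FPKM. Their mRNA was present in Het, for Srp19 at 64.5 and 76.5 FPKM, close to the 66.4 and 79.5 FPKM in KO. Bbip1 lost its call without KO footprint library 3, while Srp19, Nrbf2 and Kin kept theirs without each footprint library.

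Ssb, Riok1 and Fxr1 also rose in efficiency and are named after their values were seen. Ssb encodes La, which binds the 3′ ends of small nuclear RNAs and other polymerase III transcripts. Its mRNA was at 509.8 and 562 FPKM in Het and 548 and 766 FPKM in KO. Its footprints were at 92.3, 80.9 and 79.9 FPKM in Het and 2083, 4001 and 2090.3 FPKM in KO. The change in footprints was 4.93, against 0.28 in mRNA, and that in efficiency 4.65 (SE 0.49, limma adjusted p = 0.0144). Riok1, a kinase of small ribosomal subunit maturation, went from 28.6, 44.6 and 35.7 to 332, 650.2 and 512 FPKM in footprints, while its mRNA was at 370.0 and 329 FPKM in Het and 286 and 237 FPKM in KO (efficiency change 4.13, SE 0.51, adjusted p = 0.0144). Fxr1, an RNA-binding relative of the fragile X protein, had mRNA at 67.3 and 70.7 FPKM in Het and 85.5 and 69.1 FPKM in KO, and went from 71.1, 42.0 and 77.5 to 578, 859 and 617 FPKM in footprints (efficiency change 3.28, limma adjusted p = 0.0243, and 0.0603 with the replicate block). It lost its call without KO footprint library 2 or 3, and Ssb and Riok1 kept theirs without each footprint library.

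**Figure D2:**
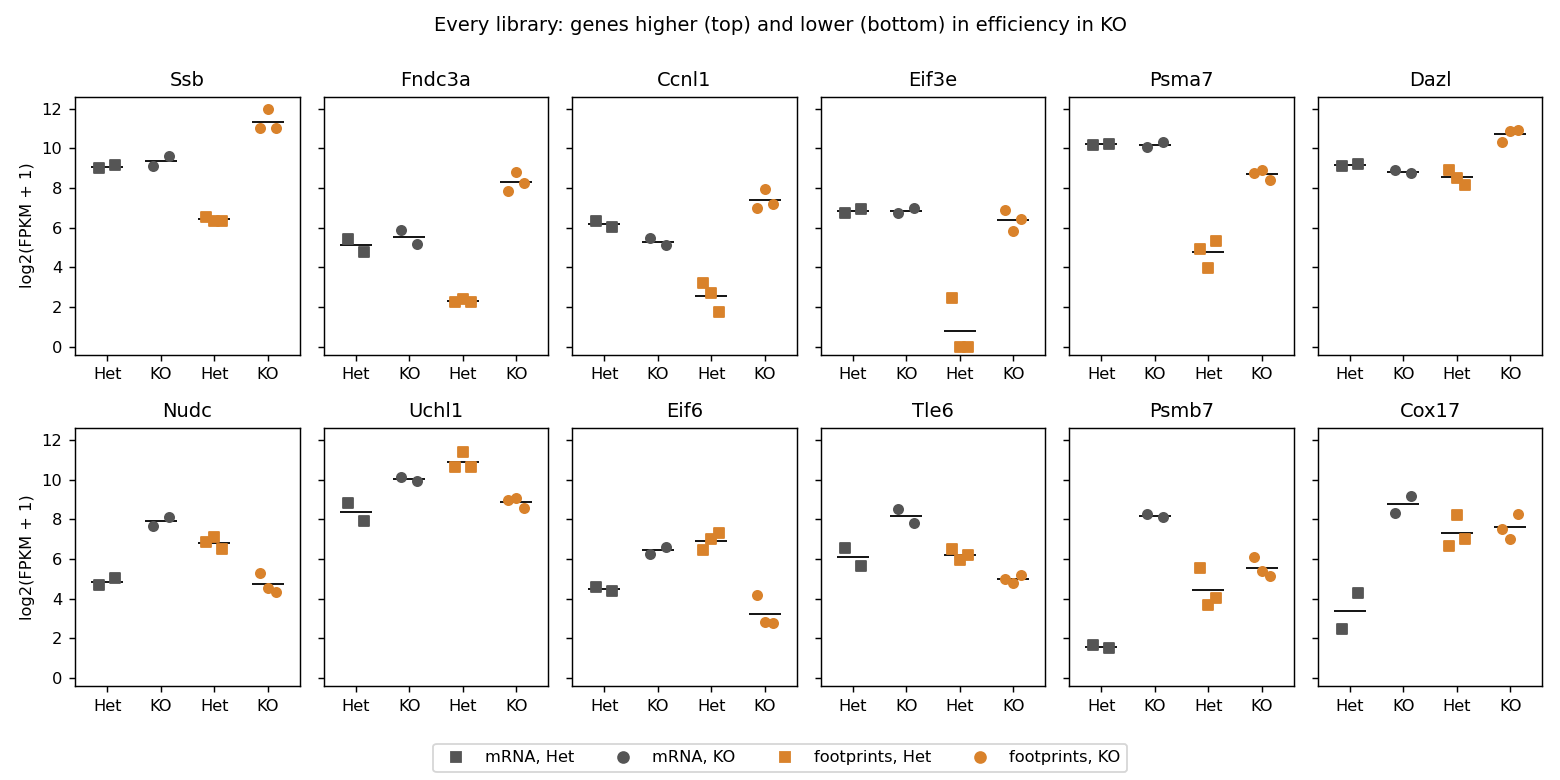
Level of 12 genes in each of the 10 libraries on the log2(FPKM + 1) scale, mRNA in grey and footprints in orange, Het as squares and KO as circles, with the group mean as a line. In the top row footprints are higher in every KO library than in every Het library, and in the bottom row mRNA is higher in both KO libraries than in both Het libraries.

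The 33 genes of lower efficiency mostly had more mRNA and fewer footprints. Of these, 23 rose in mRNA, against 18.5% of all tested genes, and 16 fell in footprints, against 0.461%. Both changes passed in 7 genes, the mRNA rise alone in 16, the footprint fall alone in 9, and neither in 1. The median change was 1.75 in mRNA and -1.999 in footprints. The footprint mean was lower in KO for 31 of the 33, Psmb7 and Cox17 being the exceptions. In 9 of the 33 all 3 KO footprint libraries were listed at 0. Where the 63 genes of higher efficiency began from a median Het efficiency of -3.60 on the log2 scale, these 33 began from 1.496 and stood at -2.69 in KO. Both sets were chosen on these values, so they are a description.

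Nudc, a regulator of the dynein motor, had its mRNA rise from 25.2 and 31.7 FPKM in Het to 205 and 277 FPKM in KO. Its footprints fell from 116, 137 and 89.7 FPKM to 38.3, 22.3 and 19.5 FPKM. Neither pair of groups overlapped, as held for 61.1% of all tested genes in mRNA and 27% in footprints. The efficiency change was -5.13 (SE 0.56, limma adjusted p = 0.0144). Eif6, which keeps the large ribosomal subunit from joining too early, rose in mRNA from 23.6 and 19.8 to 75.7 and 96.9 FPKM and fell in footprints from 87.3, 129.8 and 158 to 17.1, 6.05 and 5.81 FPKM. Its efficiency change was -5.62 (SE 0.72, limma adjusted p = 0.0152, and 0.0526 with the replicate block). Both genes kept their call without each footprint library.

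Uchl1 and Tle6 are maternal proteins of the egg. Uchl1 is a deubiquitinase that is abundant in oocytes. It rose in mRNA from 455 and 241 to 1143 and 995 FPKM and fell in footprints from 1582, 2656 and 1586 to 507, 542 and 378 FPKM. Its efficiency change was -3.68 (SE 0.52, limma adjusted p = 0.0179). Tle6, of the subcortical maternal complex, rose in mRNA from 92.3 and 49.4 to 365 and 223 FPKM, while footprints were at 89.5, 60.6 and 72.9 FPKM in Het and 31.1, 26.8 and 35.1 FPKM in KO. The footprint difference by itself did not pass (adjusted p = 0.113), and the efficiency change of -3.29 did (SE 0.56, limma adjusted p = 0.0386). Tle6 lost this call without any 1 KO footprint library.

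Psmb7 and Cox17 had the 2 largest mRNA rises of the 33, and neither passed in footprints. Their footprint changes were 1.13 (SE 0.61) and 0.30 (SE 0.52). Psmb7, a catalytic subunit of the proteasome, was at 2.16 and 1.83 FPKM in Het mRNA and 307 and 275 FPKM in KO mRNA. Footprints were at 46.0, 11.8 and 15.4 FPKM in Het and 68.9, 41.0 and 34.5 FPKM in KO, and these groups overlapped. The mRNA change was 6.60, the footprint change 1.13 (adjusted p = 0.349) and the efficiency change -5.47 (SE 0.82, limma adjusted p = 0.0218). Cox17, a copper chaperone of cytochrome oxidase, went from 4.65 and 18.7 to 325 and 577 FPKM in mRNA. Cox17 footprints were at 99.9, 294 and 128 FPKM in Het and 181, 128 and 307 FPKM in KO (efficiency change -5.06, SE 0.95, limma adjusted p = 0.0431, and 0.0623 with the replicate block). Psmb7 lost its call without KO footprint library 2 or 3, and Cox17 without any footprint library other than Het 1.

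The other named genes of lower efficiency split by assay. Arg2, the mitochondrial arginase, went from 6.58 and 6.10 to 79.8 and 88.7 FPKM in mRNA, and Glrx5, of iron-sulphur cluster assembly, from 17.0 and 18.5 to 103 and 148 FPKM. Footprint means of both were lower in KO without passing (adjusted p = 0.125 and 0.0601). Pdpn, a membrane glycoprotein gene, rose in mRNA from 26.2 and 20.5 to 107 and 97.1 FPKM, and had footprints of 22.8, 26.9 and 58.7 FPKM in Het and of 0, 5.85 and 0 FPKM in KO. Cenpx, a gene of centromeric chromatin and DNA crosslink repair, was level in mRNA (66.7 and 138 against 49.1 and 142 FPKM), and its footprints were 150.3, 345 and 64.4 FPKM in Het and listed at 0 in all 3 KO libraries. Scand1 likewise had 22.4, 77.0 and 43.2 FPKM in Het footprints and 0 in KO. Cdc42ep2, an effector of the GTPase Cdc42, fell in footprints from 129, 107 and 125 to 5.18, 18.3 and 3.52 FPKM. The efficiency call was lost with the replicate block for Arg2, Scand1, Cdc42ep2 and Pdpn (limma adjusted p = 0.0525, 0.0511, 0.0603 and 0.0774) and kept for Glrx5 and Cenpx. Pdpn and Cdc42ep2 also lost it without Het footprint library 2 or 3 or KO footprint library 1 or 3.

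Disagreement in direction was also counted apart from the efficiency test, as 1 assay past its threshold and the other opposite by 0.5 log2 or more. By this rule 335 genes had more mRNA and fewer footprints in KO (4.54%), and 38 had more footprints and less mRNA (0.515%). With the replicate block there were 615 and 372, with median scaling 289 and 127, and with quantile normalization 318 and 126. The 38 were 89 without Het mRNA library 2, 23 without KO mRNA library 2, 22 without Het footprint library 3, and 9, 11 and 11 without KO footprint libraries 1, 2 and 3. Of the 335, 26 fell in efficiency, against 0.447% of all tested genes, and of the 38, 20 rose, against 0.853%. The rule uses the same mRNA and footprint values as the efficiency test, so these counts are a description and no separate support. Both assays passed in opposite directions for 7 of the 335.

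The 5 of the 335 with the largest efficiency differences did not pass in efficiency, and their footprints differed widely within KO or within Het. Cox7b, a subunit of cytochrome oxidase, rose in mRNA from 9.55 and 4.34 to 163 and 181 FPKM. Footprints of this gene were at 69.5, 137 and 119 FPKM in Het and at 0, 0 and 57.0 FPKM in KO (efficiency difference -9.29, SE 2.16, limma adjusted p = 0.0801). Atp5k, of the ATP synthase, rose in mRNA from 20.9 and 40.0 to 66.9 and 81.9 FPKM, with footprints of 135, 199 and 174 FPKM in Het and of 0, 0 and 41.5 FPKM in KO. Lsm2, of the decapping-associated Lsm ring, Smim7 and Chchd2, a mitochondrial protein gene, had differences of -6.94, -6.68 and -6.66, with standard errors of 2.15 to 2.94. In the opposite class Synj2bp, a mitochondrial outer membrane protein gene, joined the 4 genes already described. Its mRNA was at 2.06 and 3.41 FPKM in Het and 1.16 and 1.13 FPKM in KO, and its footprints at 0.0439, 0 and 0 FPKM in Het and 59.4, 42.0 and 20.2 FPKM in KO.

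Poly(A) tails come from other libraries (1 of wild-type full-grown oocytes, FGO, and 2 of KO MII oocytes). The mRNA assay primes on the tail, so tails may not be independent of the efficiency values that chose these genes. They are given per gene as deposited, and 1996 of the 7382 genes had a value in the authors' pooled KO column. Among these the efficiency change followed the tail length in KO. With tails below 25 nt the median efficiency change was -1.57 (280 genes, 85.0% of them below 0). It was -0.87 from 25 to 40 nt (578 genes), 0.03 from 40 to 60 nt (498 genes), 0.44 from 60 to 90 nt (373 genes) and 0.61 at 90 nt or more (267 genes, 18.4% below 0). Over the same bins the median mRNA change ran from 1.07 to -0.46, while the median footprint change was -0.37, -0.14, 0.39, 0.38 and 0.12. Spearman rho across genes between tail length and efficiency change was 0.51 in the pooled column. It was 0.50 over 814 genes in KO tail library 1 and 0.49 over 1323 genes in KO tail library 2. In FGO, before maturation, it was -0.22 over 5159 genes, and in the single Het MII tail library 0.14 over 580 genes. With the mRNA change, rho was -0.46 for the pooled KO tail and -0.51 for the Het MII tail. With the footprint change it was 0.22 and -0.08. The sources used here do not say what a gene needed to have a tail value. These shares are therefore of the genes with a value and not of all members, and the bins were set after the tails were seen.

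The genes of lower efficiency had short tails in KO, and also in MII controls where these had a value. Of the 33 genes of lower efficiency, 26 had a pooled KO tail, with a median of 26.5 nt. In all 25 of them with both values the KO tail was shorter than the FGO tail, by a median difference of -32.7 nt, and so it was for 17 of 17 genes in KO tail library 1 and 18 of 18 in library 2. Of the 63 of higher efficiency, 20 had a pooled KO tail, with a median of 55.4 nt, and 7 of 20 were shorter than in FGO (median difference 8.02 nt). The single KO libraries did not go the same way for them: 4 of 7 genes were shorter in library 1 (median difference -7.56 nt) and 4 of 11 in library 2 (4.61 nt). For all tested genes the median pooled KO tail was 44.2 nt, and 1163 of 1887 genes were shorter (median difference -11.1 nt). In the authors' pool of wild-type and Het MII controls the median tail was 32.9 nt for 10 genes of lower efficiency. It was 63.4 nt for 868 tested genes. In the single Het MII library these medians were 31.9 nt (8 genes) and 73.6 nt (580 genes). Fewer genes had both a pooled KO and a pooled control value. Of 10 genes of lower efficiency 7 were shorter in KO (median difference -4.98 nt), of 5 genes of higher efficiency 1 was (16.2 nt), and of 654 tested genes 328 were (-0.03 nt). In FGO the order was the reverse, at 61.1 nt for the genes of lower efficiency, 46.6 nt for those of higher efficiency and 53.2 nt for all tested genes.

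Within the 1366 genes whose mRNA rose, tails were longer in those that also passed upward in footprints. The 1260 that did not pass, whose median footprint change was 0.68, had a median pooled KO tail of 30.8 nt (434 genes with a value), and the 106 that did had 59.2 nt (57 genes). In KO tail library 1 these medians were 31.1 and 61.8 nt and in library 2 they were 31.6 and 49.7 nt. In FGO they were 56.7 and 48.3 nt. The 335 genes with more mRNA and fewer footprints had the shortest median of these classes, 25.1 nt over 123 genes. Their FGO median was 58.4 nt. No test was run on tails by class, since genes are not replicates. Smart-seq2, the mRNA assay, primes on the poly(A) tail, so the amount of an mRNA and the share of it with a tail that primes cannot be told apart in the mRNA values.

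Single genes showed the spread. Ssb had tails of 95.6 and 100.9 nt in the KO libraries and 51.1 nt in FGO, and Psma7 had 67.4 and 81.9 nt in KO and 43.1 nt in FGO. On the other side, Nudc had 19.7 and 19.8 nt in KO and 51.6 nt in FGO. Eif6 had 15.5 and 18.8 nt against 50.6 nt in FGO, and Tle6 25.7 and 23.8 nt against 77.8 nt. Uchl1 had 24.5 and 24.4 nt in KO, 32.4 nt in Het MII and 66.4 nt in FGO, so its tail was short in Het as well. Riok1, with 51.9 and 44.0 nt in KO, 43.4 nt in Het MII and 42.5 nt in FGO, gained footprints without a difference of that size in tails.

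**Figure D3:**
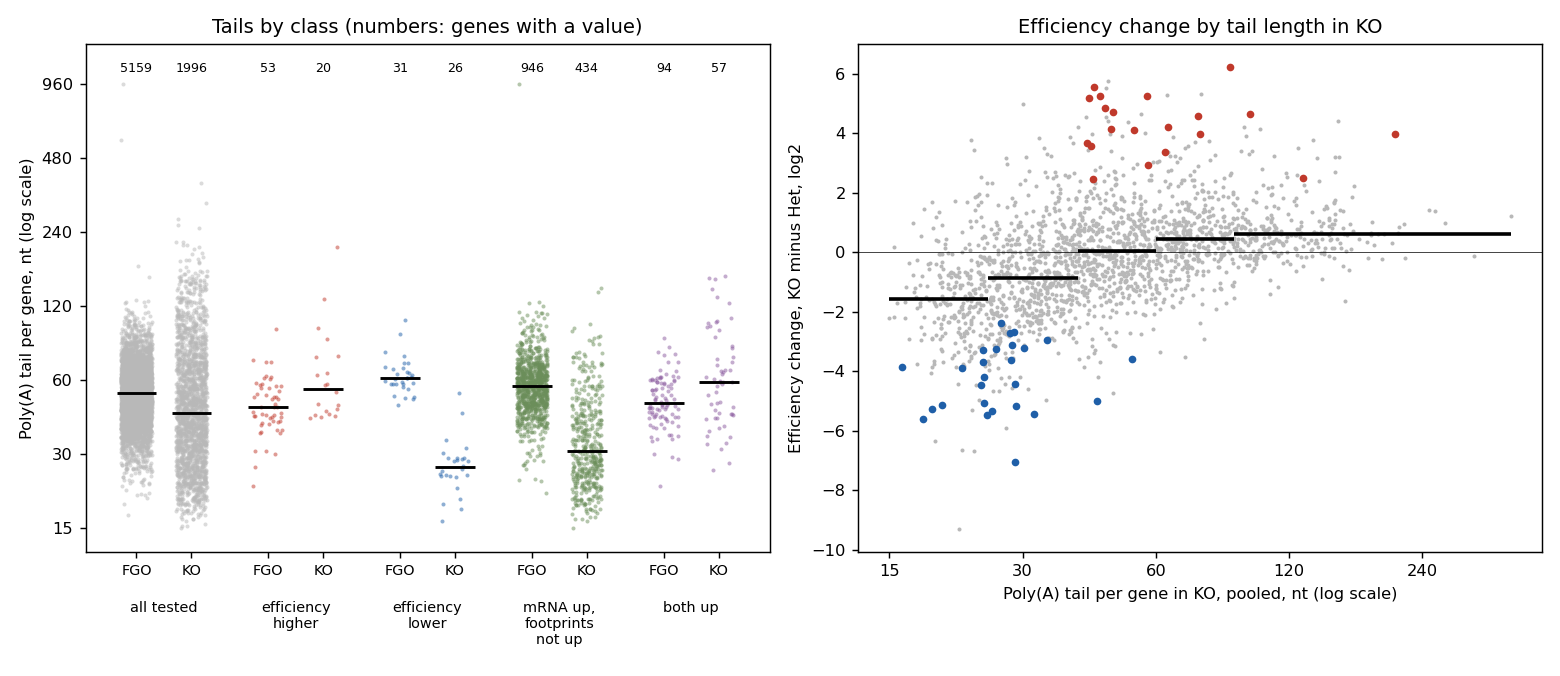
Left, poly(A) tail per gene (nt, log scale) in FGO and in the pooled KO column by class, 1 point per gene, median as a line, number of genes on top. Right, efficiency change against the pooled KO tail (log scale) with bin medians as lines, genes of higher efficiency in red and of lower efficiency in blue: the bin medians run from -1.57 below 25 nt to 0.61 at 90 nt or more.

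Footprints of single wild-type oocytes (18 FGO and 20 MII) place these genes in normal maturation. Each stage counts as 1 sample, so no test was made. The 33 genes of lower efficiency had 43.0 FPKM in FGO as the median of their footprint levels, against 18.6 FPKM in MII, and 25 of 33 were lower in MII (75.8%). The 63 of higher efficiency had 5.38 and 2.97 FPKM, and 44 were lower in MII (69.8%). All tested genes had 4.32 and 5.02 FPKM, and 48.8% were lower in MII. Of the 1366 genes with more mRNA in KO 1109 were lower in MII (81.2%), with medians of 10.4 and 4.49 FPKM, and of the 335 with more mRNA and fewer footprints 279 were (83.3%). Nudc went from a mean of 85.4 FPKM in FGO to 43.5 FPKM in MII, Uchl1 from 2567 to 683 FPKM and Ssb from 94.0 to 50.8 FPKM. Dazl went the other way, from 7.12 to 146 FPKM.

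Gene lists held few efficiency calls, and no list was tested as a whole. Of all 7382 tested genes 1.3% passed in efficiency by limma, and 1034 had an unadjusted p under 0.05. In the deadenylation and decay machinery, 2 of 32 tested members rose in efficiency (0.853% of all tested genes did), and the median was 0.82, against 0.24 over all genes. Without Het footprint library 3 the list's median was 0.14. Cnot4, a ubiquitin ligase of the CCR4-NOT complex, kept its mRNA (58.4 and 46.0 against 57.5 and 44.0 FPKM) and rose in footprints from 8.31, 4.90 and 10.7 to 60.6, 72.5 and 81.0 FPKM (efficiency change 3.10, limma adjusted p = 0.0431). Btg2, a relative of Btg4 in the same adaptor family, was listed at 0 in all Het footprint libraries and at 41.8, 159.7 and 96.6 FPKM in KO. Both lost the call with the replicate block (adjusted p = 0.0603 and 0.0681) and without KO footprint library 2 or 3. Cnot4 lost it also without KO footprint library 1, and Btg2 without Het footprint library 2 or 3. Tob2, of the same adaptor family, missed the threshold, with footprints of 1.51, 0 and 3.89 FPKM in Het and 54.8, 75.5 and 68.8 FPKM in KO (limma adjusted p = 0.0604). So did the deadenylase gene Cnot6l, at 114, 80.7 and 83.5 FPKM in Het and 364, 533 and 377 FPKM in KO (adjusted p = 0.0614).

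Among 26 messages known to be recruited for translation in maturation, Dazl alone passed in efficiency, against 1.3% of all tested genes. Btg4 itself is among the 26. The median change was -0.64 in mRNA, -0.33 in footprints and 0.39 in efficiency. The efficiency median ran from 0.13 without KO mRNA library 2 to 0.65 without KO mRNA library 1, and was 0.16, 0.22 and 0.23 without Het mRNA library 1, Het footprint library 3 and KO footprint library 2. Dazl encodes an RNA-binding protein that activates translation in oocytes. It is also the 1 of 29 RNA storage genes to pass, again against 1.3% of all tested genes. Its mRNA was at 554 and 590.4 FPKM in Het and 476 and 427 FPKM in KO, and its footprints rose from 481, 366 and 287 to 1289.5, 1882 and 1914 FPKM (efficiency change 2.51, SE 0.44, limma adjusted p = 0.0386, and 0.0691 with the replicate block). It lost the call without Het footprint library 2 or KO footprint library 2 or 3. The pooled KO tails of this list had a median of 88.6 nt over 16 genes, against 42.3 nt in FGO.

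The lists of housekeeping machinery had more mRNA with smaller or no gains in footprints. Of 72 nuclear genes of the respiratory chain 49 rose in mRNA and 1 rose in footprints, against 18.5% and 4.09% of all tested genes. The median change was 1.69 in mRNA, -0.30 in footprints and -1.71 in efficiency. The efficiency change was below 0 in 64 of the 72, against 42.2% of all tested genes, and its list median lay between -2.31 and -1.23 without each library in turn, but Ndufa1, of complex I, alone passed. Its mRNA went from 17.0 and 45.9 to 148 and 208 FPKM and its footprints were at 918, 625 and 545 FPKM in Het and 384, 498 and 304 FPKM in KO (efficiency change -3.41, limma adjusted p = 0.044). This call was lost without any 1 footprint library. Pooled KO tails of the list had a median of 27.7 nt over 32 genes, and 20 of 22 were shorter than in FGO.

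Of 75 cytosolic ribosomal protein genes 51 rose in mRNA, against 18.5% of all tested genes, and 0 passed in efficiency by limma, against 1.3%. At an unadjusted p under 0.05 were 2 of the 75, against 1034 of all 7382 tested genes. The median of the 75 was 1.58 in mRNA, 1.26 in footprints and -0.71 in efficiency. That efficiency median became 0.63 without KO footprint library 2 and 0.0018 without Het footprint library 1, so its direction rests on these libraries, and was -1.93 without KO footprint library 1. Of 63 mitochondrial ribosomal protein genes 32 rose in mRNA and 4 in footprints, against 18.5% and 4.09% of all tested genes. Of these 63, 0 passed in efficiency, against 1.3%, with 11 at an unadjusted p under 0.05, against 1034 of all 7382 genes. The list's median was -0.59, and it was -0.18, -0.34 and -0.36 without KO footprint library 2, Het mRNA library 1 and Het footprint library 1. In the proteasome list 23 of 38 genes rose in mRNA, against 18.5%, and 2 subunits passed in efficiency, against 1.3%, in opposite directions. The list's median efficiency change was -0.58, and it was -0.06, -0.33, -0.01 and -0.32 without KO footprint library 2, KO footprint library 3, Het footprint library 1 and Het mRNA library 1. Psmb7 fell in efficiency as above. Psma7, a subunit of the outer ring, rose: its mRNA was level at 1154 and 1203 FPKM in Het and 1084 and 1251 FPKM in KO, and its footprints went from 29.5, 14.9 and 38.9 to 436, 475 and 341 FPKM (efficiency change 3.96, SE 0.56, limma adjusted p = 0.0178, and 0.0558 with the replicate block).

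**Figure D4:**
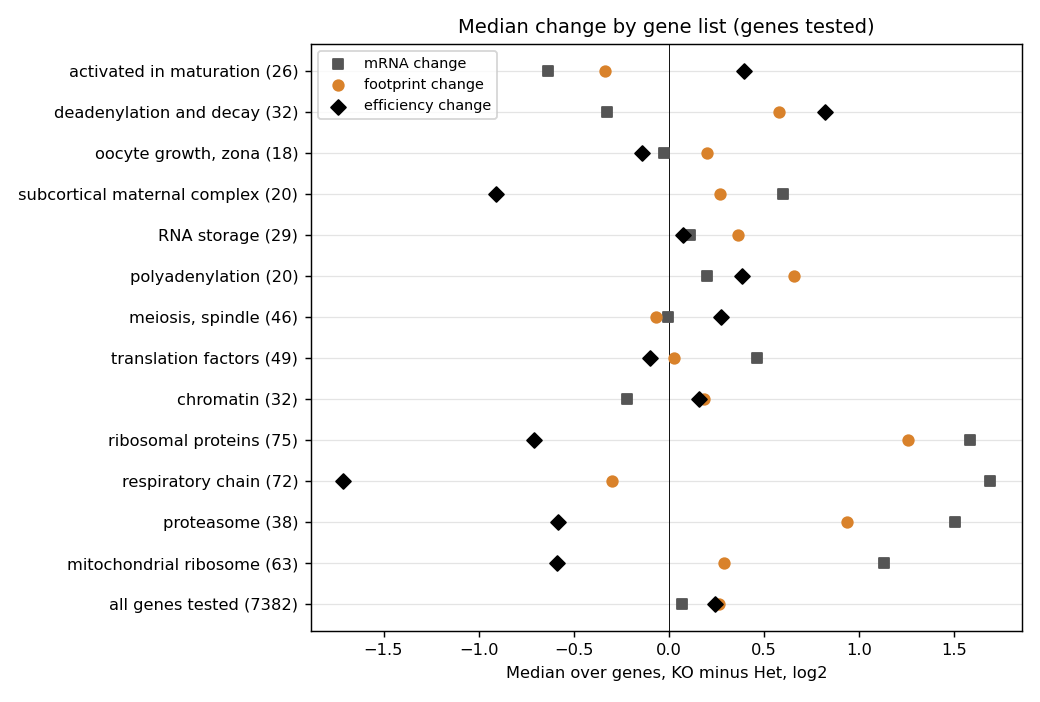
Median change of each gene list with 15 or more tested members (numbers in brackets) in mRNA, footprints and efficiency, KO minus Het on the log2 scale. The respiratory chain runs from 1.69 in mRNA to -1.71 in efficiency, and all genes tested stand at 0.07 and 0.24.

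Oocyte and regulatory lists held few calls. Of all 7382 tested genes 0.853% rose and 0.447% fell in efficiency by limma, and 1034 had an unadjusted p under 0.05. Of 20 genes of the subcortical maternal complex and maternal effect list 2 fell in efficiency (Uchl1 and Tle6), with a median of -0.91, and of -0.11 without KO footprint library 2 and -0.57 without Het footprint library 1. Zar1, an RNA-binding maternal effect gene, had footprints of 114, 227 and 249.9 FPKM in Het and 57.0, 33.0 and 58.0 FPKM in KO and missed the threshold in efficiency (limma adjusted p = 0.0774). Of 18 oocyte growth and zona genes 0 passed by limma, with 6 at an unadjusted p under 0.05. A pair of its regulators differed in opposite senses without passing. The transcription factor gene Nobox had an efficiency difference of -3.28 (adjusted p = 0.0888) and the growth factor gene Bmp15 one of 2.45 (adjusted p = 0.0801, and 0.0479, past the threshold, with the replicate block). Of 49 translation factors Eif3e and Etf1, the release factor that ends translation, rose and Eif6 fell. Of 46 meiotic and spindle genes Ccnb3, a cyclin needed for anaphase in meiosis, rose alone, with footprints of 1.58, 3.10 and 2.44 FPKM in Het and of 47.5, 47.0 and 21.0 FPKM in KO (efficiency change 4.27, limma adjusted p = 0.0386). Etf1 and Ccnb3 lost the call with the replicate block (adjusted p = 0.0603 each) and without KO footprint library 1 or 2, and Etf1 also without KO footprint library 3. Of the 20 polyadenylation and 32 chromatin genes 0 passed by limma, with 5 and 4 at an unadjusted p under 0.05. Of 2 tested genes each in the follicle cell, blood and 2-cell lists Arg2 of the 2-cell list alone passed.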

How the data were processed

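The authors deposited footprint (Ribo-seq), mRNA (Smart-seq2) and single-oocyte levels as gene FPKM. The submitters' processing notes name STAR 2.5.3a, Bowtie2 2.2.2, Cufflinks 2.2.1, Trim Galore 0.4.2 and cutadapt 1.14, without their roles, and list hg19 beside mm9. Poly(A) tail lengths are in nucleotides per gene (score) as deposited by the authors, with 0 for no value, and the sources used here do not say how reads were summarised. The authors' averages of the Btg4 libraries were not used. After 231 exact repeats were dropped, 20756 genes remained.

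Values were taken as log2(FPKM + 1), with a pseudocount of 1, and fitted with limma 3.58.1 under R 4.3.3 (empirical Bayes with a mean-variance trend, two-sided), adjusted by Benjamini-Hochberg over the 7382 tested genes, with a threshold of 0.05. On this scale the change of low genes is understated. Efficiency is the interaction of genotype and assay over 10 libraries, which takes 1 spread for both assays. mRNA (2 against 2) and footprints (3 against 3) were also fitted apart. Tested on simulated data with 200 changed genes, the efficiency fit recovered 50% of changes of 3 log2 and 80% of changes of 5 log2, and 8 of its 138 calls were on unchanged genes. The changed genes were drawn only from those of higher footprint level, and noise was independent between libraries. These rates therefore do not carry over to genes near 0 or to libraries that deviate together.

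Same-numbered libraries deviated together from their group means (correlation 0.27, 0.42 and 0.16 in footprints and 0.65 in mRNA, where 2 pairs give 1 value), so the replicate number was also fitted as a block within assay. The labels do not say what a number marks.

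Genes just inside the filter were Ccng1, Th and Sertad2 (1.00 FPKM in 1 assay) and just outside it Ctu2, Axin1 and Foxj2 (0.998 to 0.999 FPKM). Named are Btg4, the 10 genes with the largest efficiency change in each direction (called, mean of 5 FPKM or more in each assay, genotypes apart in at least 1 assay), 5 per class of opposite direction, and up to 3 per list by p. The members, the 16 lists and these rules were chosen with earlier results of these data known. Tails, single oocytes and figures were handled in Python 3.11.15 (matplotlib 3.10.9, pandas 2.3.3, numpy 2.4.6).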

Additional observations from a re-analysis of the deposited data

How the results depend on the processing

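Counts stayed within 1.5 times of those reported under the alternatives run, with these exceptions. A pseudocount of 5 gave 51 genes of lower efficiency. Without a filter on low values (11362 genes) efficiency was higher for 27 and lower for 12, mRNA lower for 15, footprints higher for 154 and lower for 14, 20 genes had more footprints and less mRNA, and the median pooled KO tails of the higher and lower genes were 64.1 and 25.25 nt. With a mean of 5 FPKM or more in each assay mRNA was higher for 845 genes, 202 had more mRNA and fewer footprints, and the tail medians were 63.6 and 27.6 nt. Median scaling gave 907 higher and 684 lower in mRNA, 141 higher in footprints, 127 genes with more footprints and less mRNA, and a tail median of 25.25 nt for the lower genes. Quantile normalization gave 617 lower in mRNA, 195 higher in footprints and 126 genes with more footprints and less mRNA. With the replicate block efficiency was higher for 27 genes, mRNA higher for 2450 and lower for 1551, the opposite classes held 615 and 372, and the tail medians were 48.1 and 27.6 nt. The block changed no count by over 1.5 times other than these, and no call printed other than those given beside a gene. Weights by assay gave 158 higher and 110 lower in efficiency, and asking for 1 log2 in the opposite direction gave 222 and 14 genes. The cause of these moves was not tested.

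Leaving out 1 library at a time gave 0 to 156 genes higher and 0 to 47 lower in efficiency, 932 to 1320 higher and 20 to 274 lower in mRNA, and 0 to 297 higher and 0 to 17 lower in footprints. It gave 231 to 423 and 9 to 89 genes in the opposite classes and tail medians of 47.1 to 64.1 and 25.1 to 27.5 nt. Where an arm was left with 1 mRNA library, that library was assumed to vary like the others in the fit. In the efficiency fit these include the footprint libraries, whose median residual SD was 0.88, against 0.32 for mRNA. The footprint count was 0 in both directions without KO library 2 or 3. The 2-cell list member Sp110, at 1.35, lay between -0.25 (without Het footprint library 2) and 2.69. Among genes named above, calls lost under some other setting that kept all libraries were those of Atp6v1a, Satb1, Timeless, Eif3e, Pdpn, Cdc42ep2, Cox17, Dazl, Cnot4, Btg2, Etf1, Tle6, Ccnb3, Csrnp2 and Ndufa1. Of the 96 efficiency calls, 22 passed in each of the 9 alternatives that kept all libraries, with the replicate block at limma adjusted p of 0.0479 to 0.0494. Footprint depth limits what can be said of genes at 0, and tails were given for few genes.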
